A study of Mus musculus with 16 samples.

Results

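The interaction of the Hdac1 and Hdac2 deletions was measured in growing mouse oocytes, that is, how far gene expression in oocytes lacking both genes departed from the sum of the changes in oocytes lacking 1 of them. All 16 arrays of the series enter it. Members were the 18820 genes read by the 21218 of 35556 probe sets that carry exactly 1 gene symbol. Genes named only by the 1881 probe sets with several symbols are not covered. Oocytes came from ovaries of 12-day-old mice on the strain background C57BL/6, with 80 oocytes pooled per sample and 4 biological replicates in each of 4 genotypes. The genotypes were the HDAC1/2 conditional knockout (double knockout), the HDAC1 conditional knockout (Hdac1 knockout), the HDAC2 conditional knockout (Hdac2 knockout) and wild type. In the knockouts, conditional loss-of-function alleles were combined with a Zp3-Cre transgene, whose Zp3 promoter is active in growing oocytes and not in the surrounding cells of the ovary. The labels do not state whether wild-type females carried that transgene or the conditional alleles. An effect common to all 3 knockouts enters the interaction with a negative sign, and a loss of either enzyme and the presence of the transgene cannot be told apart there. RNA was amplified as whole-transcriptome cDNA and read on Affymetrix arrays, which report each transcript region as a probe set.

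HDAC1 and HDAC2 are closely related enzymes that remove acetyl groups from histones. They share the Sin3, NuRD, CoREST and MiDAC co-repressor complexes, where either enzyme can occupy the catalytic position. In many tissues the loss of either is buffered by the other. A growing oocyte is transcriptionally active while it stores the RNA it will use for maturation and for the early embryo, and it is arrested in meiotic prophase. For a pair of enzymes that can stand in for each other, a double knockout can differ from the sum of the single knockouts, and the contrast described here measures that difference.

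For each probe set the interaction was double knockout minus Hdac1 knockout minus Hdac2 knockout plus wild type, on the deposited log2 scale. It is 0 where the double-knockout change against wild type equals the sum of the single-knockout changes, positive where the double knockout lies above that sum (above additivity) and negative where it lies below. A probe set was called at an adjusted p under 0.05 in limma, a linear model fitted to all 16 arrays with Benjamini-Hochberg adjustment over the 21218 probe sets. Bright and dim mean above and below the median wild-type mean over tested probe sets, 5.24 on the log2 scale. Levels and differences below are all on that scale, and levels of different probe sets are not comparable with one another.

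Array medians ran from 4.46 to 4.59 and arrays of 1 genotype correlated at 0.992 to 0.995. Of 12 oocyte markers 0 were called by limma in either direction (at an unadjusted p under 0.05, 0 above and 1 below, and with centring 0 and 1 called), and their summed signal was 43944 to 44524 in double-knockout arrays, 42996 to 44916 in Hdac1-knockout, 42090 to 43452 in Hdac2-knockout and 43712 to 44028 in wild-type arrays. Of 10 theca and stroma markers 0 were called (at an unadjusted p under 0.05, 1 above and 0 below), and their sum was 158 to 170, 152 to 165, 149 to 162 and 154 to 161 in the same order of genotypes. Of 9 granulosa markers 2 were above and 1 below additivity (1 and 2 with centring), and of 10 blood, immune and endothelial markers 0 were above and 1 below. The granulosa sum was 660 to 706 in double-knockout arrays, 1019 to 1160 in Hdac1-knockout, 936 to 1038 in Hdac2-knockout and 1044 to 1143 in wild-type arrays, most of it from Nr5a2, an orphan nuclear receptor gene, at 8.74, 9.80, 9.60 and 9.82 in those genotypes. The blood, immune and endothelial sum was 261 to 320, 484 to 555, 455 to 535 and 463 to 519 in the same order, and its brightest member was the adhesion molecule gene Pecam1, at 7.04, 8.55, 8.35 and 8.42. The median members did not follow these sums. In the same order of genotypes they were at 4.78, 4.52, 4.60 and 4.71 for granulosa markers. For blood, immune and endothelial markers they were at 3.61, 3.64, 3.57 and 3.59. The lower sums in the double knockout thus do not describe the lists as a whole. Of these markers of other cells, 7 granulosa, 10 theca and 8 blood markers were dim in wild type. In pooled oocytes fewer cells of a type and less RNA per cell cannot be told apart, and the part of other cells in the results was not tested.

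Hdac1 itself stood at 7.72, 7.54, 7.61 and 7.75 in double-knockout oocytes, 6.40, 6.53, 6.70 and 6.83 in Hdac1-knockout oocytes, 9.69, 9.77, 9.55 and 9.56 in Hdac2-knockout oocytes and 9.26, 9.26, 9.23 and 9.35 in wild type. The 4 genotypes did not overlap. As a share of the wild-type signal, 32.5% remained with both genes deleted and 15.8% in the Hdac1 knockout, while the Hdac2 knockout stood at 129%. The interaction of Hdac1 was 0.68 ± 0.12 (SE; limma adjusted p = 0.000539), and its other probe set gave 0.73. Hdac1 was therefore above additivity on the log2 scale while lower than in wild type. Taken on the linear signal scale the same contrast was -76.5 ± 32.7 signal units (limma adjusted p = 0.121), so the direction for this gene turns with the scale. Hdac2 had 10.85, 10.81, 10.89 and 10.95 in double-knockout oocytes, 11.16, 11.05, 11.14 and 11.16 in Hdac1-knockout oocytes, 10.95, 11.01, 11.01 and 10.99 in Hdac2-knockout oocytes and 11.07, 11.02, 11.18 and 11.08 in wild type. Its signal in the Hdac2 knockout was 93.5% of wild type, and which exons were deleted and which this probe set reads is not stated in the labels, so the probe set does not check the Hdac2 genotype.

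The interaction was called for 4939 probe sets, 23.3% of those tested, with 2479 above additivity (11.7%) and 2460 below (11.6%). The classes were of very different size. Among 10609 probe sets bright in wild type, 1545 were above (14.6%) and 2197 below (20.7%). Among the 10609 dim ones, 934 were above (8.8%) and 263 below (2.48%). For comparison, calls on the same arrays made up 38.3% of probe sets for the double knockout against wild type, 38.7% against the Hdac1 knockout and 33.7% against the Hdac2 knockout. Against wild type they made up 0.0707% for the Hdac1 knockout and 5.59% for the Hdac2 knockout. These contrasts share arrays with the interaction and with each other. The standard error of the interaction had a median of 0.12, against 0.08 for the double knockout minus wild type, because it joins 4 group means.

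The balance of the directions depended on the scaling. As deposited, 50.2% of the calls were above additivity and 49.8% below. With each array centred on its median the shares were 30.7% and 69.3%, and with quantile normalization 46.1% and 53.9%. The median interaction of all probe sets was -0.099 with centring and -0.03 with quantile normalization, against -0.0046 as deposited. Small interactions are therefore read relative to that shift, and counts with centring are given beside the groups for which they turned the order of the counts above and below.

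**Figure D1:**
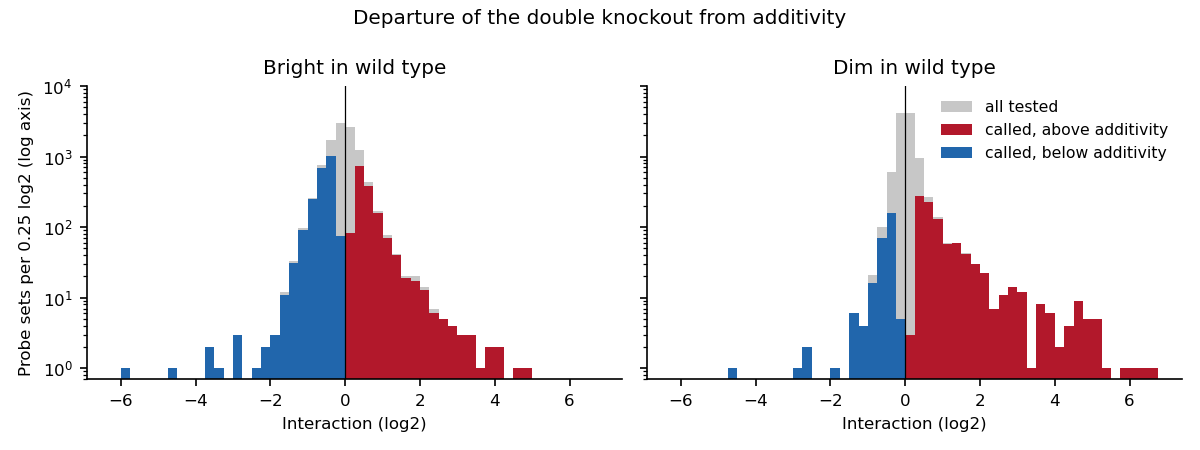
Number of probe sets (log axis) by interaction in steps of 0.25 log2, for probe sets bright (left) and dim (right) in wild type, with all tested in grey, calls above additivity in red and calls below in blue. The dim panel has a long right arm that reaches 6.54 and few calls on the left, while the bright panel has more calls below (2197) than above (1545). Probe sets dim in wild type have less room to fall than to rise.

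The typical called interaction was modest and the tail was long for dim genes. The median interaction was 0.48 for calls above additivity and bright, 0.69 above and dim, -0.50 below and bright and -0.44 below and dim. A departure of 2-fold or more was seen in 187, 299, 147 and 15 probe sets of these classes, and one of 4-fold or more in 41, 111, 11 and 4. Large departures above additivity were thus more numerous among genes dim in wild type, although that class held fewer calls than the bright one.

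Most interactions came without a single-knockout change of size. The series' own limit of 1.4-fold was used to sort the calls by which knockouts stood that far from wild type. Neither single knockout did so for 92.2% of calls above and bright, 94.9% above and dim, 95.9% below and bright and 90.1% below and dim. The same share over all tested probe sets was not counted. Calls against wild type were few there, at 0.0707% for the Hdac1 knockout and 5.59% for the Hdac2 knockout. The shares therefore describe the calls and do not set them apart from other probe sets. The double knockout alone stood 1.4-fold or more above wild type in 628 bright and 541 dim probe sets, and alone 1.4-fold or more below it in 1013 bright and 30 dim ones. In 797, 345, 1093 and 207 probe sets of the 4 classes all 3 knockouts were within the limit. The Hdac2 knockout passed the limit in 102 of the bright calls above additivity and the Hdac1 knockout in 29. A smaller group of 76 probe sets below additivity, 51 bright and 25 dim, was 1.4-fold or more higher in a single knockout and not in the double knockout.

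**Figure D2:**
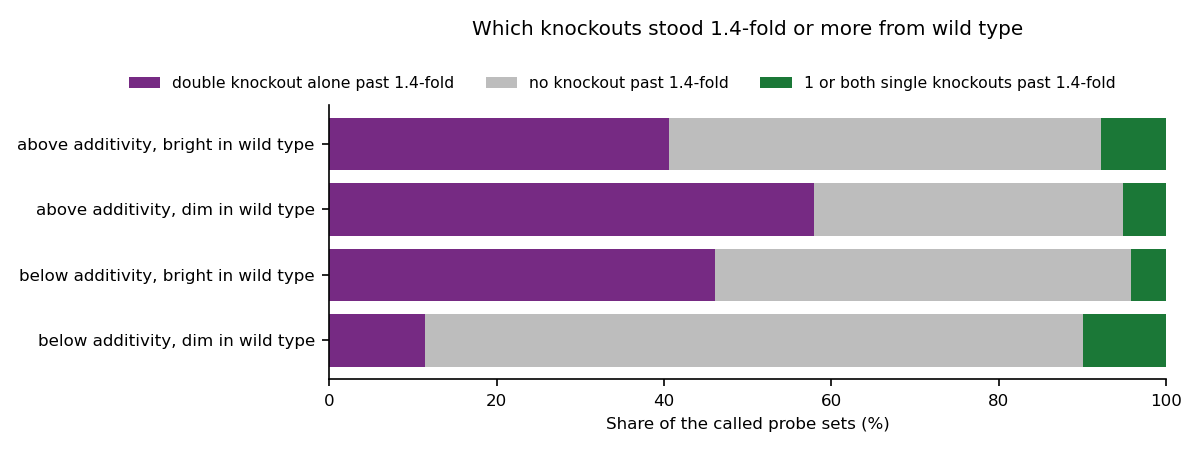
Share of called probe sets (percent, horizontal axis) in the 4 classes by which knockouts stood 1.4-fold or more from wild type: the double knockout alone, no knockout, or 1 or both single knockouts. Single knockouts past the limit make up 7.77% and 5.14% of the calls above additivity (bright and dim) and 4.14% and 9.89% of those below.

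RefSeq promoter windows of 300 bases, from 250 bases before to 50 after the start in build GRCm38.p6, were found for 14739 of the 18820 genes. The GC box, searched as GGGCGG on both strands, was in 74.6% of 1020 windows of genes above additivity and bright and in 61.1% of 1665 below and bright, against 65.7% of all 7584 bright genes. It was in 49.0% of 651 windows above and dim and 40.8% of 169 below and dim, against 33.9% of all 7155 dim genes and 50.3% of all windows. The median ratio of observed to expected CpG was 0.80 above and bright, 0.78 below and bright and 0.80 over all bright genes. It was 0.52 above and dim and 0.44 below and dim, against 0.32 over all dim genes. These are descriptions with no test.

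Windows of 4 genes, from classes that moved in different directions, show the GC box in context, with each match in capitals. Kdm5b (interaction 2.97), encoding a demethylase of histone H3 lysine 4, and Bex3 (3.18), encoding a small adaptor protein linked to neurotrophin receptor signalling, were above additivity and bright. Meioc (3.01), needed for meiotic prophase in germ cells, was above and dim. Gpr3 (-1.18), encoding the receptor whose signal holds the oocyte in meiotic arrest, was below and bright. The windows lie at chr1:134559928-134560227 (+ strand), chrX:136270003-136270302 (+), chr11:102665335-102665634 (+) and chr4:133212487-133212786 (- strand), and hold 1, 1, 1 and 5 matches.
Kdm5b: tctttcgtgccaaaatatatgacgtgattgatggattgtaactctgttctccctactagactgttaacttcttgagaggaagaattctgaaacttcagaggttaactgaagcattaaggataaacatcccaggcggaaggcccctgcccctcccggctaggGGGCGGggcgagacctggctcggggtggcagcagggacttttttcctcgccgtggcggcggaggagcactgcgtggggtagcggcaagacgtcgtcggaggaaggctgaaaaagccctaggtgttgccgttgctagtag
Bex3: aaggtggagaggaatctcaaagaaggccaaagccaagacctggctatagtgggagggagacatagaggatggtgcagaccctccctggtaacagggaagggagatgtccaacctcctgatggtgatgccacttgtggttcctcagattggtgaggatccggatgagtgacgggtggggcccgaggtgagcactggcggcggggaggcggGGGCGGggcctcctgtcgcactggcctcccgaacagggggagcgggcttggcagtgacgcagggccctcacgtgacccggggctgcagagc
Meioc: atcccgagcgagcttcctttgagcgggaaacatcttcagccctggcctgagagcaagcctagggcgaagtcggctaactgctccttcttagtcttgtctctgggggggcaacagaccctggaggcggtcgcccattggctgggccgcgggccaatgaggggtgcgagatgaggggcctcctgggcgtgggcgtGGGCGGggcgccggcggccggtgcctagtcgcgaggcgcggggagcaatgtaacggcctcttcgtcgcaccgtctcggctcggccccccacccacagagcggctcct
Gpr3: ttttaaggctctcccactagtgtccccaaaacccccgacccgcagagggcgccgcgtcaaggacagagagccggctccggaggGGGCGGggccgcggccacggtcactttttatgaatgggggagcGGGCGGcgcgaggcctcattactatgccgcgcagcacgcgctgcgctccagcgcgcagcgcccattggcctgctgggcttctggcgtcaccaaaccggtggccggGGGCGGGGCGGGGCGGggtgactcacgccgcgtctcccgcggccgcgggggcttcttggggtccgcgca

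Among genes bright in wild type, the 8 named by size above additivity had varied functions. Naming went by the interaction of a gene's brightest probe set and left out provisional symbols such as those starting with Gm, so probe sets with larger interactions exist, up to 4.78 in this class. The 8 lay between 2.98 and 4.01. Their wild-type means ran from 5.25 (Cd63) and 5.38 (Tmsb4x) to 6.99 (Bex3), against the bright limit of 5.24. Some thus stood close to that limit, and bright means only above it. Usp17la encodes a ubiquitin-specific protease. It had 10.33, 10.28, 9.91 and 10.40 in double-knockout oocytes, 5.78, 5.58, 5.77 and 5.43 in Hdac1-knockout oocytes, 6.51, 6.07, 6.04 and 6.08 in Hdac2-knockout oocytes and 5.79, 5.49, 5.64 and 5.47 in wild type. The 4 double-knockout arrays lay far above the other 12, and the Hdac2 knockout also lay above wild type. The interaction was 4.01 ± 0.18 (SE, limma adjusted p = 1.28e-10). A second probe set, dim in wild type at 3.43, gave 4.33. Pramel19, of a family of leucine-rich repeat proteins, had 9.82, 10.25, 10.19 and 10.01 in double-knockout oocytes, 6.09, 6.19, 6.11 and 5.89 in Hdac1-knockout oocytes, 6.45, 6.40, 6.41 and 6.56 in Hdac2-knockout oocytes and 6.01, 6.19, 5.72 and 6.15 in wild type. Its interaction was 3.55 ± 0.15 (limma adjusted p = 8.74e-11). Bex3 averaged 10.35 ± 0.08 (SD, n = 4) in the double knockout, 6.80 ± 0.15 in Hdac1-knockout oocytes, 7.35 ± 0.45 in Hdac2-knockout oocytes and 6.99 ± 0.11 in wild type.

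Cd63 encodes a tetraspanin of late endosomes and lysosomes and had an interaction of 3.96 ± 0.41. The double knockout stood at 8.98, 8.83, 9.32 and 9.33, while the wild-type arrays were spread, at 5.63, 4.26, 5.10 and 6.00. Ddit4l, encoding an inhibitor of the growth kinase mTORC1, reached 3.28 ± 0.20 with a mean of 9.65 ± 0.26 in double-knockout oocytes (SD, n = 4). In the Hdac1 knockout it stood at 5.49 ± 0.28, in the Hdac2 knockout at 6.53 ± 0.16 and in wild type at 5.65 ± 0.18. Here the Hdac2 knockout rose by 0.88 over wild type (limma adjusted p = 0.00178), so the double knockout was compared with a raised additive value. The retinoic acid binding protein gene Crabp1 followed at 3.10 ± 0.32 and Tmsb4x, encoding the actin-sequestering thymosin beta-4, at 2.98 ± 0.22. Rgn, encoding the calcium-binding protein regucalcin, stood apart in form: it averaged 7.77 ± 0.38 in double-knockout oocytes, 5.52 ± 0.27 in Hdac1-knockout oocytes, 5.47 ± 0.30 in Hdac2-knockout oocytes and 6.23 ± 0.38 in wild type. Its single-knockout changes were negative, at -0.71 and -0.77, of which that of the Hdac2 knockout passed (limma adjusted p = 0.0422), and its interaction was 3.01 ± 0.30. In all 8 genes the 4 double-knockout arrays lay above the 12 others, and no call was lost when any array was left out. The 8 were picked by the size of this contrast on these same arrays, so neither adds support. In their class 14.6% of probe sets were called.

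Among genes dim in wild type the 8 named by size had larger departures above additivity, with genes of the early embryo among them. Zfp352, a zinc finger gene of the 2-cell embryo, had 10.61, 11.16, 11.16 and 11.14 in double-knockout oocytes, 3.90, 3.97, 3.76 and 3.88 in Hdac1-knockout oocytes, 3.66, 6.68, 4.27 and 4.01 in Hdac2-knockout oocytes and 3.87, 3.91, 4.09 and 4.34 in wild type. Replicate 2 of the Hdac2 knockout was above the others of its genotype. The interaction was 6.54 ± 0.61 (limma adjusted p = 1.36e-06). Rfpl4b, a ret finger protein-like gene, had 9.66, 10.39, 9.84 and 10.09 in double-knockout oocytes, 3.50, 3.48, 3.62 and 3.53 in Hdac1-knockout oocytes, 3.72, 4.63, 3.88 and 3.51 in Hdac2-knockout oocytes and 3.76, 3.59, 3.48 and 3.42 in wild type. Its interaction was 6.09 ± 0.27 (limma adjusted p = 1.28e-10), and again replicate 2 was the highest Hdac2-knockout array. Tdpoz3, with TRAF and POZ domains, had an interaction of 5.79 ± 0.35, with 4.63 in replicate 2 of the Hdac2 knockout against 3.41, 3.42 and 3.43 in the others.

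The other 5 dim genes named by size had interactions from 4.87 to 5.25. Cd24a, encoding a cell-surface glycoprotein, averaged 10.45 ± 0.09 in double-knockout oocytes, 4.69 ± 0.15 in Hdac1-knockout oocytes, 5.56 ± 0.42 in Hdac2-knockout oocytes and 4.91 ± 0.29 in wild type (SD, n = 4), an interaction of 5.10 ± 0.24. Grp, encoding gastrin-releasing peptide, averaged 9.07 ± 0.38, 3.86 ± 0.15, 3.92 ± 0.17 and 3.88 ± 0.22 in the same order of genotypes, an interaction of 5.16 ± 0.22. The single-knockout changes of Grp were -0.02 and 0.05. Tmem92, a transmembrane protein gene, had 5.25 ± 0.24. Spopfm2, of the speckle-type POZ family, had 5.01 ± 0.14, and its 3 probe sets hold the same values. Usp17lb, a relative of Usp17la, had 4.87 ± 0.18 and averaged 9.45 ± 0.27 in double-knockout oocytes, 4.04 ± 0.12 in Hdac1-knockout oocytes, 4.62 ± 0.23 in Hdac2-knockout oocytes and 4.08 ± 0.13 in wild type. As among bright genes, the double-knockout arrays lay above the other 12 for all 8 genes, and no call was lost without any 1 array. These 8 were also picked by size on the same arrays, so neither adds support. In their class 8.8% of probe sets were called. Members of such families are similar in sequence, and how far their probe sets read one another's RNA was not tested.

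The windows of Usp17la (chr7:104856766-104857065, + strand) and Usp17lb (chr7:104842534-104842833, - strand) are shown because these genes moved together. They share an identical run of 47 bases. Capitals mark TATAAA, searched on both strands, which has 0 matches in the first and 1 in the other. It was in 15.5% of windows above additivity and dim, against 18.2% of all dim genes and 12.3% of all windows.
Usp17la: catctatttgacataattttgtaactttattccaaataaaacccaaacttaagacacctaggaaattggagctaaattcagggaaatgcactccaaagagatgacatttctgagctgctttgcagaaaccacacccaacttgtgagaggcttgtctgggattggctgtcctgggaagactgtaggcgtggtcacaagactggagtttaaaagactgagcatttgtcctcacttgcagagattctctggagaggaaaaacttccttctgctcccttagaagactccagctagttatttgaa
Usp17lb: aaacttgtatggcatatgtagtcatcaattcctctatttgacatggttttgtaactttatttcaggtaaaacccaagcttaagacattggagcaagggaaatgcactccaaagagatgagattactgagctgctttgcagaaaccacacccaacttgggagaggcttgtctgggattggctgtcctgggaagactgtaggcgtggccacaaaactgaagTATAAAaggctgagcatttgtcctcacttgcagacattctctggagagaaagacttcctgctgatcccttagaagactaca

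**Figure D3:**
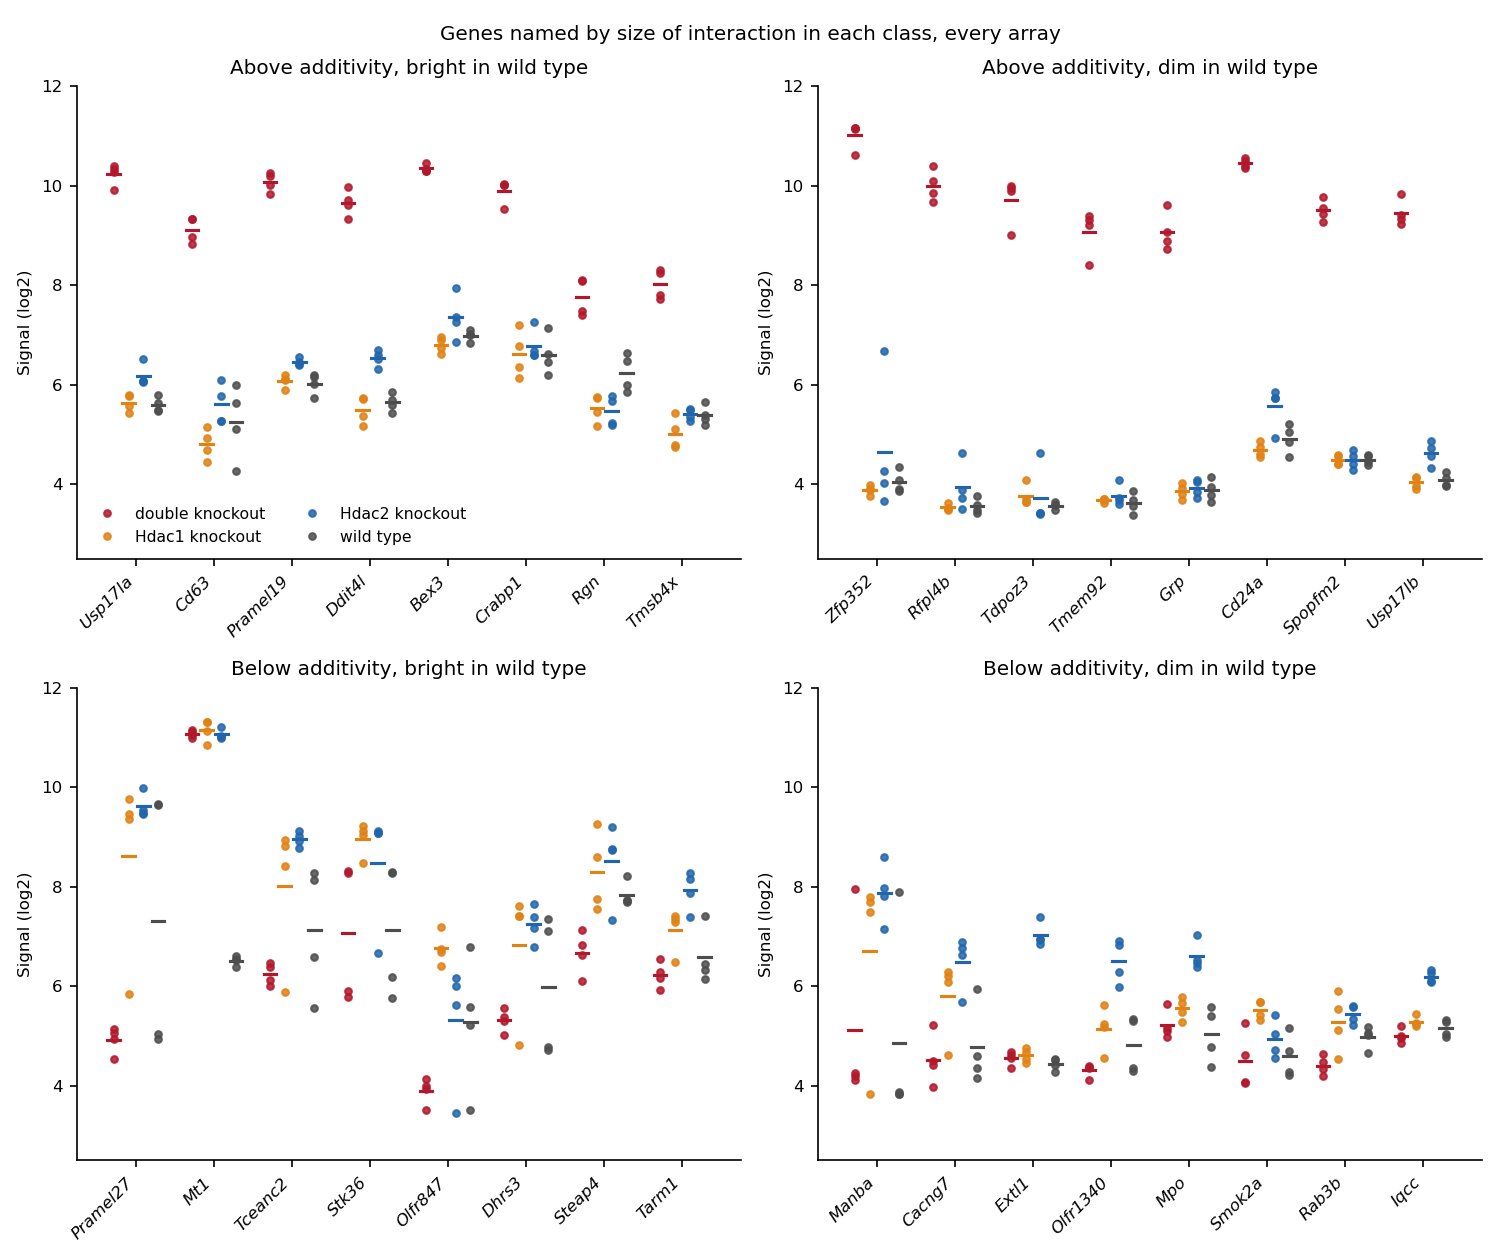
Signal (log2, vertical axis) on every array for the 8 genes named by size in each class (largest interaction in a gene's brightest probe set, among symbols that are not provisional), with points for arrays, bars for means of 4 arrays and colours for genotypes. In the upper panels the double knockout lies above all 12 other arrays for all 16 genes, while in the lower panels arrays of a genotype lie far apart for several genes and the double knockout overlaps other genotypes for 15 of 16 genes.

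Below additivity and bright in wild type, Mt1 was high in all 3 knockouts. Mt1 encodes a metallothionein, a small protein that binds zinc and other metals. It had 10.99, 11.14, 11.11 and 11.05 in double-knockout oocytes, 10.85, 11.30, 11.30 and 11.12 in Hdac1-knockout oocytes, 11.01, 10.99, 11.20 and 11.02 in Hdac2-knockout oocytes and 6.52, 6.54, 6.38 and 6.61 in wild type. All 12 knockout arrays were high and the 3 knockouts overlapped. The interaction was -4.62 ± 0.13 (limma adjusted p = 6.08e-13), close in size to the rise in the 3 knockouts (4.56, 4.63 and 4.55). Mt1 is thus a case of an effect common to all knockouts. Its neighbour Mt2, another metallothionein gene, was above additivity and dim: it had 5.60, 5.41, 5.50 and 5.29 in double-knockout oocytes, 4.59, 4.95, 4.82 and 4.69 in Hdac1-knockout oocytes, 4.61, 4.75, 5.04 and 4.78 in Hdac2-knockout oocytes and 4.90, 4.94, 4.85 and 5.03 in wild type. The Mt2 interaction was 0.83 ± 0.13 (limma adjusted p = 0.000288).

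Metallothionein genes are known to respond to metals through short metal-response elements, so the 2 windows are shown with the core of that element in capitals, searched as TGCACNC and TGCGCNC on both strands. The windows are chr8:94178839-94179138 (+ strand) and chr8:94172368-94172667 (+ strand), with 3 and 4 matches, and their longest identical run is 8 bases. TGCACNC was in 12.3% and TGCGCNC in 21.4% of all windows. Both genes carry matches while their interactions differed in sign.
Mt1: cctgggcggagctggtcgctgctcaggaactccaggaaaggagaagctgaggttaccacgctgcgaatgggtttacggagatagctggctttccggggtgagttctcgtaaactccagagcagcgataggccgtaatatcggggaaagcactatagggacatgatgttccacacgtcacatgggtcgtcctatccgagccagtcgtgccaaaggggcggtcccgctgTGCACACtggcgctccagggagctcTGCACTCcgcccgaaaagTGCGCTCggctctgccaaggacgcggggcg
Mt2: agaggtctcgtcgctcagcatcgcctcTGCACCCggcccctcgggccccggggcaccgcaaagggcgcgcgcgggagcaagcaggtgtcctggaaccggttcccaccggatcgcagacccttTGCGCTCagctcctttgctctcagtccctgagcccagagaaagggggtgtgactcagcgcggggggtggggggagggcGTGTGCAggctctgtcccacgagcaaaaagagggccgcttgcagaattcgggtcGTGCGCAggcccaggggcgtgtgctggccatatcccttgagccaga

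Among the other bright genes named by size below additivity, Pramel27, Dhrs3, Tceanc2, Stk36 and Olfr847 had arrays far apart within a genotype. Pramel27, of the same repeat family as Pramel19, had 5.13, 5.05, 4.53 and 4.94 in double-knockout oocytes, 9.77, 9.36, 5.84 and 9.46 in Hdac1-knockout oocytes, 9.55, 9.47, 9.46 and 9.98 in Hdac2-knockout oocytes and 9.66, 4.93, 5.03 and 9.65 in wild type. All double-knockout arrays, replicate 3 of the Hdac1 knockout and replicates 2 and 3 of wild type were low. The interaction was -5.99 ± 1.43 (limma adjusted p = 0.00573). Dhrs3, encoding an enzyme that reduces retinal, was low on the same arrays: it had 5.37, 5.30, 5.56 and 5.03 in double-knockout oocytes, 7.42, 7.41, 4.82 and 7.62 in Hdac1-knockout oocytes, 7.18, 6.79, 7.40 and 7.65 in Hdac2-knockout oocytes and 7.34, 4.78, 4.71 and 7.10 in wild type. Its interaction was -2.77 ± 0.87 (limma adjusted p = 0.0291), and the call was lost in 7 of the 16 fits without 1 array. Tceanc2, with domains of the elongation factor TFIIS, had -3.58 ± 0.85, and its other probe set gave -3.52. It was low in replicates 2 and 3 of wild type, at 6.58 and 5.56, as in the double knockout, but its low Hdac1-knockout array was replicate 1, at 5.88. Pramel27, Dhrs3 and Tceanc2 lie on chromosome 4, which also carries Hdac1. The Pramel27 window (chr4:143846247-143846546, + strand) is shown beside those of the Usp17 genes, with its 1 match to TATAAA in capitals.
Pramel27: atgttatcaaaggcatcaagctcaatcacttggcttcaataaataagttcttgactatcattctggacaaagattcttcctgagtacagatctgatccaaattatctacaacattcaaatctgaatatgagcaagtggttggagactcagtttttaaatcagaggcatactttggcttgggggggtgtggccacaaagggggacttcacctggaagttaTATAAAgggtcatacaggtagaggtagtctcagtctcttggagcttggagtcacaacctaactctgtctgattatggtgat

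Stk36, encoding a kinase needed for motile cilia, had an interaction of -3.25 ± 1.01 (limma adjusted p = 0.0272). Its double-knockout arrays split as well, at 8.31, 5.90, 8.27 and 5.78, against 8.47, 9.22, 9.04 and 9.13 in Hdac1-knockout oocytes, 6.66, 9.12, 9.08 and 9.07 in Hdac2-knockout oocytes and 6.18, 8.29, 8.28 and 5.76 in wild type. The call was lost in 7 of the 16 fits without 1 array. Olfr847, an olfactory receptor gene, had -2.90 ± 0.82, with wild-type arrays between 3.51 and 6.78. Their mean of 5.28 was close to the bright limit of 5.24. The metalloreductase gene Steap4 had -2.28 ± 0.54, at 6.63, 6.83, 6.09 and 7.14 in double-knockout oocytes, 7.55, 7.76, 8.59 and 9.25 in Hdac1-knockout oocytes, 7.33, 9.20, 8.73 and 8.76 in Hdac2-knockout oocytes and 7.70, 7.73, 8.21 and 7.71 in wild type. It was the only one of these 8 whose double-knockout arrays lay below all 12 others, in a class where 20.7% were called. Tarm1, encoding a receptor of myeloid cells, had -2.25 ± 0.37: it was at 6.23 ± 0.26 in double-knockout oocytes, 7.13 ± 0.43 in Hdac1-knockout oocytes, 7.92 ± 0.39 in Hdac2-knockout oocytes and 6.58 ± 0.56 in wild type (SD, n = 4). It rose in the Hdac2 knockout (limma adjusted p = 0.00688). Its wild-type arrays were at 6.31, 6.44, 7.41 and 6.15, and Hdac1-knockout replicate 1 was low for its genotype at 6.49.

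Below additivity and dim, 5 of the 8 named genes rose in the Hdac2 knockout and did not pass the test in the double knockout. Extl1, encoding an exostosin-like glycosyltransferase, had 4.61, 4.55, 4.68 and 4.36 in double-knockout oocytes, 4.76, 4.46, 4.54 and 4.68 in Hdac1-knockout oocytes, 6.84, 6.93, 7.39 and 6.94 in Hdac2-knockout oocytes and 4.51, 4.42, 4.53 and 4.28 in wild type. Only the Hdac2-knockout arrays were high, with the other 3 genotypes overlapping. The interaction was -2.65 ± 0.15 (limma adjusted p = 4.07e-09). Iqcc, with an IQ calmodulin-binding motif, had the same form: it ran over 4.86 to 5.19 in the double knockout, 5.19 to 5.44 in the Hdac1 knockout, 6.08 to 6.32 in the Hdac2 knockout and 4.98 to 5.33 in wild type. Its interaction was -1.32 ± 0.13 (limma adjusted p = 2.2e-06). Olfr1340, an olfactory receptor gene, rose by 1.68 in the Hdac2 knockout against wild type and had an interaction of -2.51 ± 0.38. Its wild-type arrays split, at 5.29, 4.30, 4.35 and 5.34, with replicates 2 and 3 low as for Pramel27, Dhrs3 and Tceanc2. Mpo, encoding myeloperoxidase, rose by 1.57 there, with an interaction of -1.90 ± 0.32.

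Cacng7, encoding a gamma subunit family member of calcium channels, had an interaction of -3.00 ± 0.59 and rose by 1.72 in the Hdac2 knockout. Its arrays stood at 4.36, 4.60, 5.94 and 4.16 in wild type and 4.62, 6.20, 6.29 and 6.08 in the Hdac1 knockout. Wild-type replicate 3 thus lay above Hdac2-knockout replicate 1, at 5.69. Cacng7 and Tarm1 lie on chromosome 7, and wild-type replicate 3 and Hdac1-knockout replicate 1 stood apart in both. Rab3b, a GTPase gene of secretory vesicles, had -1.33 ± 0.30, and Smok2a, a sperm motility kinase gene, -1.37 ± 0.37. Manba, encoding lysosomal beta-mannosidase, again had 2 levels, at 7.95, 4.11, 4.25 and 4.20 in double-knockout oocytes, 7.49, 7.69, 3.84 and 7.79 in Hdac1-knockout oocytes, 8.60, 7.96, 7.80 and 7.14 in Hdac2-knockout oocytes and 3.84, 7.90, 3.88 and 3.83 in wild type. Its interaction of -4.59 ± 1.48 (limma adjusted p = 0.0334) lost its call in 12 of the 16 fits without 1 array. The double-knockout arrays overlapped other genotypes for all 8 of these genes, in a class where 2.48% were called. A range over 2 within a genotype was found in 54 of all tested probe sets and in 20 of the called ones.

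The chromosomes of the deleted genes are given next for the genes raised in a single knockout alone. Of the 76 probe sets that were 1.4-fold or more higher in a single knockout and not in the double knockout, 19 lay on chromosome 4 (25%), against 5.99% of all tested probe sets, and 6 on chromosome 10, which carries Hdac2 (7.89%, against 4.64%). Of the 62 among them that passed the limit in the Hdac2 knockout, 19 were on chromosome 4 (30.6%). Of the 28 that passed it in the Hdac1 knockout, 4 were on chromosome 4 (14.3%) and 5 on chromosome 10 (17.9%). Over whole classes the shares on chromosome 4 were 8.67% above and bright, 5.46% above and dim, 6.65% below and bright and 11.4% below and dim. Extl1, Iqcc, Olfr1340, Rab3b, Slc30a2 and Gpr3 are among the genes on chromosome 4. The labels do not give the alleles that individual mice carried near Hdac1 and Hdac2, and their part in these values was not tested. Leaving both chromosomes out of the fit, an alternative chosen after seeing the data, gave 1315, 825, 1913 and 210 calls above and bright, above and dim, below and bright, and below and dim.

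**Figure D4:**
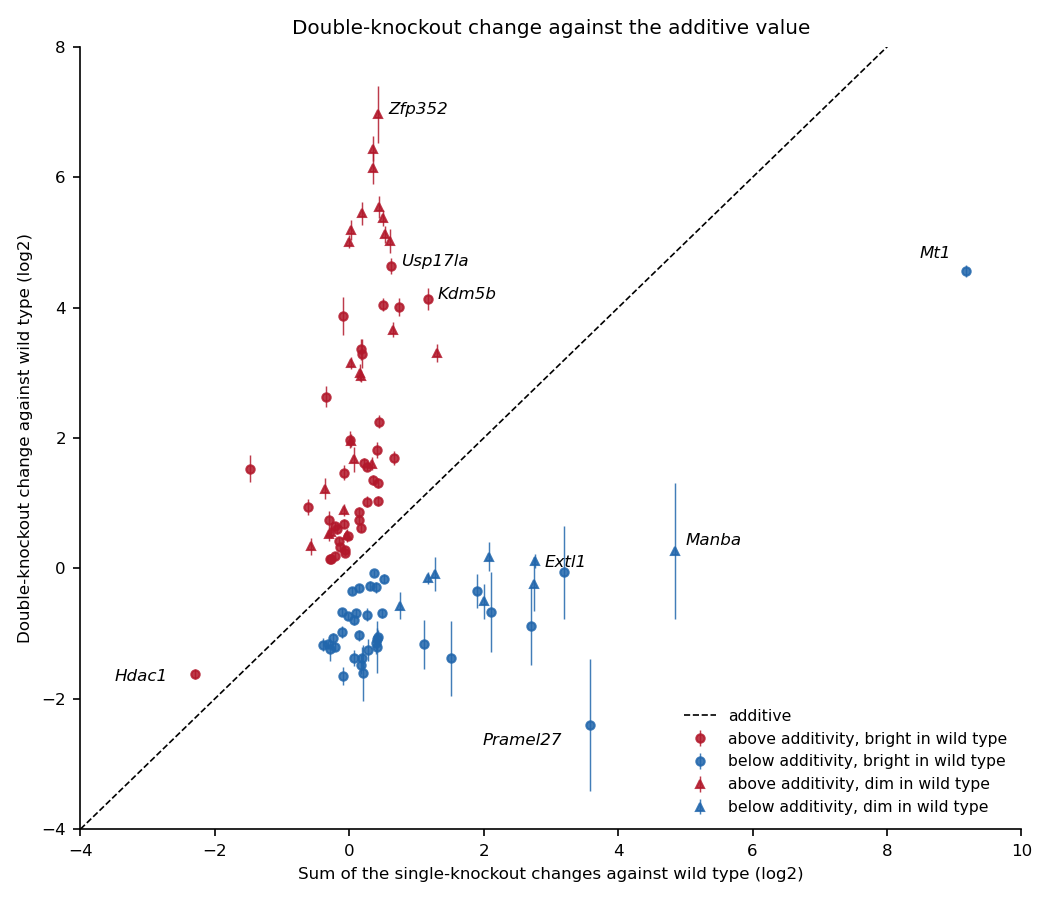
Double-knockout change against wild type (log2, vertical axis, bars are 1 SE) against the sum of the single-knockout changes (log2, horizontal axis) for the named genes except Hdac2, with the dashed line where the changes are additive. Most genes lie close to 0 on the horizontal axis and far from it on the vertical one, while Mt1 lies at a sum of 9.18 with a double-knockout change of 4.56, and Hdac1 near the line at -2.30 and -1.62.

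The plain form of a bright gene below additivity, a fall in the double knockout alone, was seen in 1013 probe sets, and 8 with the largest interaction were named after their values were seen. Prrg1, encoding a membrane protein with a vitamin K-dependent Gla domain, had 4.98, 4.96, 4.74 and 5.37 in double-knockout oocytes, 6.66, 6.63, 6.89 and 6.59 in Hdac1-knockout oocytes, 5.97, 6.61, 6.81 and 6.50 in Hdac2-knockout oocytes and 6.42, 6.50, 6.64 and 6.42 in wild type. The double knockout lay below all others, with an interaction of -1.66 ± 0.21 (limma adjusted p = 3.56e-05). Bhlhe41, encoding a repressor of the circadian clock, had -1.56 ± 0.22, at 6.40 ± 0.37 in double-knockout oocytes, 8.19 ± 0.18 in Hdac1-knockout oocytes, 7.55 ± 0.29 in Hdac2-knockout oocytes and 7.77 ± 0.06 in wild type (SD, n = 4). The serotonin receptor gene Htr5b had -1.55 ± 0.24, the transmembrane channel-like gene Tmc3 -1.53 ± 0.24 and Dcps, encoding the scavenger enzyme of mRNA decapping, -1.50 ± 0.24. Double-knockout arrays lay below the 12 others for each of these 5 genes.

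The remaining 3 were less settled. Zfp109 and Zfp111, zinc finger genes, split within the double knockout: Zfp109 had 8.46, 8.26, 6.05 and 5.97 there, and Zfp111 had 9.29, 8.94, 6.94 and 6.96, with the same replicates low. Their interactions of -1.81 ± 0.61 and -1.63 ± 0.56 each lost their call in 13 of the 16 fits without 1 array. Hspb1, encoding a small heat shock protein, had -1.55 ± 0.20 in its brightest probe set, at 8.11 ± 0.31 in double-knockout oocytes and 9.75 ± 0.20 in wild type (SD, n = 4). Its other probe sets had interactions of 2.14 and 2.22 and were at 9.38 and 9.31 in the double knockout against 6.58 and 6.57 in wild type. The probe sets of Hspb1 disagree in direction, so no direction is given for the gene.

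Gene lists were read by their counts and medians over genes, with the brightest probe set standing for a gene, and no list was tested as a set. Over all 18820 genes, 2114 were above additivity (11.2%) and 2298 below (12.2%), with a median interaction of -0.01. Among the 9233 bright genes 1255 were above (13.6%) and 2072 below (22.4%), and among the 9587 dim genes 859 were above (8.96%) and 226 below (2.36%). Counts of each list are to be read against these shares. They cover measured genes only, and some lists were measured in part. Measured were 19 of 35 listed early embryo genes, 10 of 22 Pramel, 4 of 7 Obox and 30 of 59 core histone genes. For lists with many dim members, more calls above than below is the state of dim genes as a whole. List members beyond the 2 with the smallest adjusted p were picked for naming after their values were seen.

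**Figure D5:**
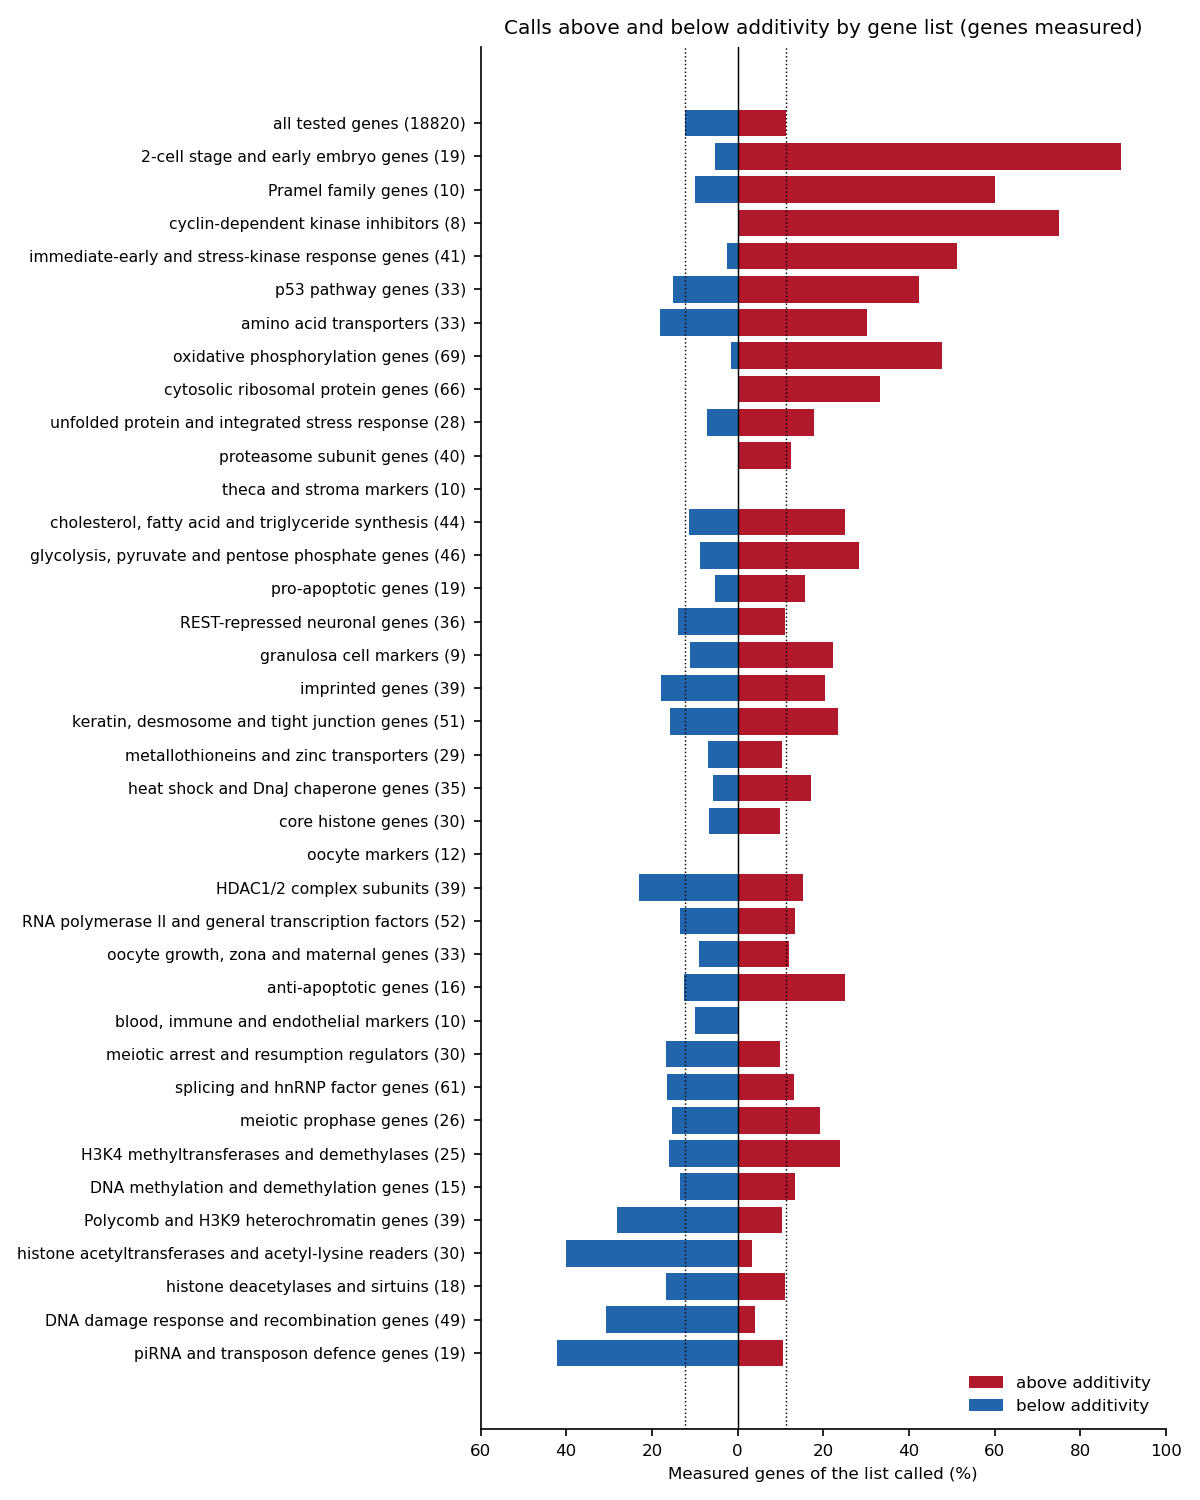
Percent of measured genes called above additivity (red, to the right) and below (blue, to the left) for 37 gene lists sorted by their median interaction, with the number measured in brackets and dotted lines at the shares of all tested genes (11.2% and 12.2%). Early embryo genes, cyclin-dependent kinase inhibitors and Pramel genes stand at the top right, and piRNA, DNA damage and acetyltransferase lists have the longest left arms.

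Genes of the 2-cell stage and early embryo had the highest median interaction of the 37 lists. Of 19 measured, 17 were above additivity (12 dim, 5 bright) and 1 below, with a median interaction of 4.01 and medians of 4.63, -0.02 and 0.23 for the double, Hdac1 and Hdac2 knockouts against wild type. Besides those described, Xkrx, of the XK-related membrane protein family, had 4.60 ± 0.18, at 8.88 ± 0.21 in double-knockout oocytes, 3.73 ± 0.12 in Hdac1-knockout oocytes, 4.30 ± 0.28 in Hdac2-knockout oocytes and 3.75 ± 0.14 in wild type (SD, n = 4). Gm5662 had 6.41, Usp17lc 2.80, Usp17ld 1.72 and Tdpoz2 2.01. Tcstv1, of a 2-cell gene family, had 1.90, with means of 11.02 in the double knockout, 9.14 with Hdac1 deleted, 10.19 with Hdac2 deleted and 10.21 in wild type. The anti-proliferative genes Btg2 and Btg1 had 1.35 and 1.03, and the initiation factor gene Eif1a 0.48. Zfp750, a zinc finger gene, was the member below additivity at -0.72. The list was chosen with these results known, so its direction is not independent evidence.

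Of 10 measured genes on the Pramel list, 6 were above additivity, 5 of them dim, and 1 below, with a median of 1.16. Pramel27, described above as below additivity at -5.99, was not on that list and is not in these counts. Pramel17 had 4.42 ± 0.26, at 8.35 ± 0.34 in double-knockout oocytes, 3.29 ± 0.16 in Hdac1-knockout oocytes, 3.97 ± 0.40 in Hdac2-knockout oocytes and 3.33 ± 0.21 in wild type (SD, n = 4). Pramel7 had 2.87, Pramel6 1.43, Pramel20 1.18 and Pramel5 1.14. Pramel15, bright in wild type at 9.60, was below at -0.50. Of 4 Obox genes, oocyte-specific homeobox genes, 0 were called by limma (at an unadjusted p under 0.05, 0 above and 2 below), and with each array centred on its median 2 were below.

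In the lists of signalling and growth arrest, calls above additivity outnumbered those below. Of 41 immediate-early and stress-kinase response genes, 21 were above (51.2%) and 1 below (2.4%), against 11.2% and 12.2% of all genes. Their median was 0.42. Those above included the AP-1 subunit genes Jun (2.53) and Fos (1.37), the stress factor gene Atf3 (1.79), the inhibitor of differentiation gene Id2 (1.43) and Egr1 (0.85). Klf4 and Klf10, Krüppel-like factor genes, had the smallest adjusted p: Klf4 had 1.41 ± 0.16, at 7.87 ± 0.15 in double-knockout oocytes, 6.14 ± 0.22 in Hdac1-knockout oocytes, 6.39 ± 0.22 in Hdac2-knockout oocytes and 6.06 ± 0.10 in wild type (SD, n = 4), and Klf10 averaged 7.41 ± 0.10 in the double knockout and 6.06 ± 0.15 in wild type. Spry4, an inhibitor of receptor kinase signalling, was the member below, at -1.05. Of 8 cyclin-dependent kinase inhibitors 6 were above and 0 below (median 0.53), and at an unadjusted p under 0.05 7 and 0. Cdkn3 had 7.87, 7.63, 7.97 and 7.71 in double-knockout oocytes, 6.09, 6.37, 6.01 and 6.00 in Hdac1-knockout oocytes, 6.40, 6.25, 6.52 and 6.68 in Hdac2-knockout oocytes and 6.48, 6.09, 6.43 and 6.31 in wild type, with an interaction of 1.54 ± 0.16. Cdkn1c, an imprinted inhibitor gene, had 1.03 ± 0.15 and Cdkn1a, a target of p53, 1.10.

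Of 33 p53 pathway genes 14 were above (42.4%) and 5 below (15.2%), against 11.2% and 12.2% of all genes, with a median of 0.24. With each array centred on its median 8 were above and 5 below. The polo-like kinase gene Plk2 had 1.93 ± 0.14, at 5.62 ± 0.27 in double-knockout oocytes, 3.72 ± 0.06 in Hdac1-knockout oocytes, 3.62 ± 0.10 in Hdac2-knockout oocytes and 3.65 ± 0.10 in wild type (SD, n = 4). Plk3 had 1.66, Gadd45b 1.52 and Gadd45g 1.32. Polk, a DNA polymerase gene that copies past lesions, had -0.85 ± 0.07 and Mdm2, encoding the ligase that degrades p53, -0.33. Among 19 pro-apoptotic genes 3 were above (15.8%) and 1 below (5.3%), with Bcl2l11 at 0.88 ± 0.10 and the death receptor gene Tnfrsf1a at 0.54 ± 0.14. Among 16 anti-apoptotic genes 4 were above (25%) and 2 below (12.5%), with Birc6 at 0.57 ± 0.08 and Bcl2l1 at -0.38 ± 0.08.

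Calls in the lists of oxidative phosphorylation and cytosolic ribosomal proteins were above additivity, with few exceptions and by small amounts. All 69 measured genes of oxidative phosphorylation were bright, and 33 were above (47.8%) and 1 below, with a median of 0.22, against 13.6% and 22.4% of bright genes. With each array centred on its median 18 were above and 1 below. Uqcr10 and Ndufa5, encoding small subunits of complexes III and I, had 0.80 ± 0.11 and 0.52 ± 0.07, and Ndufa11 had 0.80. Ndufa5 averaged 11.18 ± 0.05 in double-knockout oocytes, 10.64 ± 0.02 in Hdac1-knockout oocytes, 10.71 ± 0.07 in Hdac2-knockout oocytes and 10.69 ± 0.07 in wild type (SD, n = 4). Sdhb, a complex II subunit gene, was below at -0.42. Of 66 cytosolic ribosomal protein genes 22 were above (33.3%) and 0 below (30 and 2 at an unadjusted p under 0.05), with a median of 0.15, and with each array centred 8 were above and 2 below. Rps13 had 0.42 ± 0.07 and Rpl10a 0.41 ± 0.07, and all other probe sets of these genes had the same sign. The counts take 1 probe set per gene, and a probe set of Rps9 that was not counted was called below additivity at -0.85. Of 40 proteasome subunit genes 5 were above and 0 below (13 and 1 at an unadjusted p under 0.05), and with centring 2 were above and 4 below, so no direction is given for that list. Psma5 and Psmb1 had 0.29 ± 0.06 and 0.35 ± 0.08.

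Glycolysis and pyruvate genes were mixed, with large single departures. Of 46 measured, 13 were above (28.3%) and 4 below (8.7%), with a median of 0.08 that became -0.01 with centring. Ldha, encoding the lactate dehydrogenase A subunit, had 7.83, 7.26, 7.47 and 7.63 in double-knockout oocytes, 5.64, 5.36, 5.78 and 5.53 in Hdac1-knockout oocytes, 5.32, 5.65, 5.68 and 5.68 in Hdac2-knockout oocytes and 5.46, 5.72, 5.36 and 5.77 in wild type. The 12 arrays other than the double knockout overlapped fully, and the interaction was 1.97 ± 0.18 (limma adjusted p = 1.14e-06). Pfkp, the platelet isoform of phosphofructokinase, went the other way: it had 5.93, 5.64, 5.39 and 5.74 in double-knockout oocytes, 6.87, 6.84, 6.96 and 6.85 in Hdac1-knockout oocytes, 7.13, 6.94, 6.96 and 6.95 in Hdac2-knockout oocytes and 6.60, 7.05, 6.76 and 6.50 in wild type, with an interaction of -1.47 ± 0.16. The glucose transporter gene Slc2a1 had 0.86, the hexokinase gene Hk2 0.98, Gapdh 0.40 and Pdha2, a pyruvate dehydrogenase subunit gene, -2.15. Of 44 genes of cholesterol, fatty acid and triglyceride synthesis 11 were above and 5 below (median 0.08), and with centring 9 were above and 10 below (median -0.01), with Dgat1 at 0.71 ± 0.13, Fasn at 0.68 and Acacb at -0.86 ± 0.10. Of 33 amino acid transporters 10 were above, 7 of them dim, and 6 below, and with centring 8 and 8. Slc1a1, a glutamate transporter gene, had 2.01 ± 0.20 and rose in both the double and the Hdac2 knockout, at 7.91 ± 0.19 and 5.59 ± 0.26 against 4.59 ± 0.16 in wild type (SD, n = 4). Slc38a2 had 2.18 and Slc7a3 1.58 ± 0.22.

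Chromatin genes were nearly all bright, and bright genes as a whole held more calls below than above additivity. Of 30 histone acetyltransferases and acetyl-lysine readers 12 were below (40%) and 1 above, with a median of -0.14, against 22.4% and 13.6% of bright genes. Kat6b had -0.98 ± 0.09, at 8.60 ± 0.14 in double-knockout oocytes, 9.79 ± 0.07 in Hdac1-knockout oocytes, 9.59 ± 0.06 in Hdac2-knockout oocytes and 9.80 ± 0.05 in wild type (SD, n = 4). Atad2b had -0.56 ± 0.09 and Kat2a -0.59, while Brd2, a bromodomain reader gene, had 0.44. Of 39 Polycomb and H3K9 heterochromatin genes 11 were below (28.2%) and 4 above, with Kdm6b, an H3K27 demethylase gene, at -0.69 ± 0.12 and Kdm3a, an H3K9 demethylase gene, at 1.30 ± 0.10. Ehmt1 had -0.56, Suz12 -0.42 and Setdb1 -0.31. Of 39 subunits of HDAC1/2 complexes 9 were below (23.1%) and 6 above (15.4%), close to the shares of all bright genes. Ing2, a reader subunit of the Sin3 complex, had 1.39 ± 0.12 and Phf21a, a CoREST complex member, -1.18 ± 0.11. Mta2, of the NuRD complex, had 0.73 and Sap18, of Sin3, 0.71. Among 18 deacetylases and sirtuins 2 were above, Hdac1 and Hdac5 (0.83 ± 0.14), and 3 below, among them Hdac8 at -0.86 ± 0.12. Hdac1 is itself a deleted gene, and its direction turned on the linear signal scale. With quantile normalization 2 were above and 2 below.

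Of 25 H3K4 methyltransferases and demethylases 6 were above (24.0%) and 4 below (16%), and with each array centred 5 and 8. Kdm5b had 9.92, 9.64, 9.75 and 9.79 in double-knockout oocytes, 5.08, 5.56, 5.52 and 5.77 in Hdac1-knockout oocytes, 7.34, 6.82, 6.63 and 7.05 in Hdac2-knockout oocytes and 5.88, 5.55, 5.22 and 5.91 in wild type. The Hdac2 knockout stood between wild type and the double knockout without overlap, and the interaction was 2.97 ± 0.24 (limma adjusted p = 2.56e-07). The methyltransferase genes Kmt2a and Setd1b had 0.76 and -0.68 ± 0.10. Of 15 genes of DNA methylation and demethylation 2 were above and 2 below, and with centring 2 and 4. The methyltransferase gene Dnmt3b had 0.60 ± 0.08, the oxygenase gene Tet3 -0.45 ± 0.09 and Dnmt3l, encoding the cofactor of de novo methylation in oocytes, -0.95 ± 0.25. Dnmt3l had 6.37, 6.37, 5.41 and 6.29 in the double knockout, below all 12 other arrays, which ran from 6.66 to 7.46. Of 30 core histone genes 3 were above and 2 below (2 and 4 with centring), with H3c7 at 0.90 ± 0.19 and H2aw at -0.77 ± 0.14. Members of that family are similar in sequence.

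Of 19 piRNA and transposon defence genes 8 were below additivity (42.1%) and 2 above, with a median of -0.28, against 22.4% and 13.6% of bright genes. Henmt1, whose enzyme methylates the ends of piRNAs, had 8.98, 8.66, 8.69 and 8.82 in double-knockout oocytes, 9.61, 9.82, 9.38 and 9.70 in Hdac1-knockout oocytes, 9.40, 9.66, 9.67 and 9.77 in Hdac2-knockout oocytes and 9.65, 9.35, 9.46 and 9.53 in wild type. The double knockout lay below all others, with an interaction of -0.97 ± 0.14, and its other probe set gave -1.10. The tudor-domain gene Tdrd9 had -0.79 ± 0.09, the Piwi gene Piwil2 -0.92 (limma adjusted p = 0.0492) and the helicase gene Ddx4 -0.28, while Mael had 0.69. Of 26 meiotic prophase genes 5 were above, 3 of them dim, and 4 below, and with centring 4 and 5. Meioc had 7.58, 7.05, 7.57 and 7.36 in double-knockout oocytes, 3.87, 4.25, 4.11 and 3.96 in Hdac1-knockout oocytes, 4.09, 3.95, 4.05 and 4.14 in Hdac2-knockout oocytes and 3.66, 3.88, 3.77 and 3.60 in wild type. Its interaction was 3.01 ± 0.15 (limma adjusted p = 8.68e-10). Stra8, which starts the meiotic programme in germ cells, had 1.59 ± 0.27, with the double knockout at 5.83, 4.47, 4.92 and 4.77 above all others. The axis genes Sycp3 and Sycp2 differed in sign, at 0.51 and -0.63.

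Of 33 oocyte growth, zona and maternal genes, all bright, 4 were above (12.1%) and 3 below (9.1%), with a median of 0.004, against 13.6% and 22.4% of bright genes. With centring 3 were above and 7 below, and with quantile normalization 3 and 6, so no direction is given for that list. Taf4b, encoding a transcription factor subunit needed for oocyte survival, had 0.43 ± 0.11. Sohlh1, a factor of early follicles, had 1.02 and the maternal gene Dppa3 0.39, while Lhx8 had -0.28. Of 30 regulators of meiotic arrest and resumption 3 were above and 5 below (16.7%). Gpr3 had 7.45, 7.26, 7.24 and 7.44 in double-knockout oocytes, 8.24, 8.13, 8.19 and 8.02 in Hdac1-knockout oocytes, 8.30, 8.42, 8.50 and 8.43 in Hdac2-knockout oocytes and 7.98, 8.05, 8.13 and 7.98 in wild type. It rose in the Hdac2 knockout (limma adjusted p = 0.00371) and fell in the double knockout (6.06e-07), and the interaction was -1.18 ± 0.10 (2.74e-07). Gpr3 lies on chromosome 4, as does Hdac1, and the part of alleles near Hdac1 in its values was not tested. Pde3a, encoding the phosphodiesterase that lowers cAMP in oocytes, had 9.50, 9.47, 9.40 and 9.51 in double-knockout oocytes, 10.40, 10.28, 10.18 and 10.22 in Hdac1-knockout oocytes, 10.12, 10.13, 10.13 and 10.10 in Hdac2-knockout oocytes and 10.18, 10.21, 10.25 and 10.17 in wild type, an interaction of -0.72 ± 0.07. Cdc25b, whose phosphatase starts meiotic resumption, had 1.01 and the kinase gene Mos -0.26.

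Of 49 genes of the DNA damage response and recombination 15 were below (30.6%) and 2 above (4.1%), with a median of -0.16, against 22.4% and 13.6% of bright genes, and with each array centred 25 were below and 2 above. Fancg and Fancc, of the Fanconi anaemia pathway, had -0.58 ± 0.09 and -0.74. The kinase gene Atm was above at 0.76 ± 0.12, at 7.94 ± 0.07 in double-knockout oocytes, 6.83 ± 0.21 in Hdac1-knockout oocytes, 7.26 ± 0.08 in Hdac2-knockout oocytes and 6.91 ± 0.10 in wild type (SD, n = 4), and H2ax had 0.51. Of 52 RNA polymerase II and general transcription factor genes 7 were above and 7 below (5 and 12 with centring), with Tbpl1, a TBP-related factor gene, at 0.76 ± 0.10 and Gtf2f1 at -0.45 ± 0.07. Of 61 splicing and hnRNP genes 8 were above and 10 below, and with centring 6 and 21. Srsf9 had 0.44 ± 0.08 and Prpf4 0.47 ± 0.09.

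Of 51 keratin, desmosome and tight junction genes 12 were above (23.5%) and 8 below (15.7%), against 11.2% and 12.2% of all genes. Of those above 9 were dim, and of those below 6 were bright. The desmosome gene Dsp had 8.51, 8.07, 8.23 and 8.09 in the double knockout, and ran over 4.88 to 5.11 in the Hdac1 knockout, 5.06 to 5.34 in the Hdac2 knockout and 4.89 to 5.18 in wild type, an interaction of 3.13 ± 0.14. Its other, dimmer probe set gave -0.12 (limma adjusted p = 0.653), so the call rests on 1 of its 2 probe sets. Krt13 had 2.85 ± 0.19 and Krt8 1.27, while the tight junction gene Ocln had -0.63. Of 36 neuronal genes known as targets of the repressor REST 4 were above, all dim, and 5 below, 4 of them bright. The neurofilament genes Nefm and Nefl had 2.77 ± 0.13 and 0.97 ± 0.14, and Nefh had -1.05. Rest itself had -0.59. Of 39 imprinted genes 8 were above (20.5%) and 7 below (17.9%), and with centring 8 and 10. Among them were Cd81 at 2.14, Peg10 at 1.56 ± 0.18, Slc22a18 at 1.27 ± 0.14 and Peg3 at -1.12.

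Of 28 genes of the unfolded protein and integrated stress responses 5 were above (17.9%) and 2 below (7.1%). Over all genes these shares were 11.2% and 12.2%. Of the 24 bright ones 3 were above (12.5%), against 13.6% of all bright genes. Dnajb9, encoding a chaperone of the endoplasmic reticulum, had 1.81 ± 0.14, at 9.42 ± 0.12 in double-knockout oocytes, 7.14 ± 0.15 in Hdac1-knockout oocytes, 7.64 ± 0.20 in Hdac2-knockout oocytes and 7.17 ± 0.14 in wild type (SD, n = 4), and the stress-induced gene Sesn2 had 0.60 ± 0.11. Of 35 heat shock and DnaJ chaperone genes 6 were above (17.1%) and 2 below (5.7%). Hspa2 had 0.86 ± 0.10, and Hspb1 counted below by its brightest probe set alone. Of 29 metallothionein and zinc transporter genes 3 were above, all dim, and 2 below, both bright: Mt1 and Slc30a2 (-1.01). With centring 2 were above and 4 below. Slc30a2 lies on chromosome 4, as does Hdac1, and the part of alleles near Hdac1 was not tested. Among the marker lists of other cells the called genes were Nr5a2 (-0.84 ± 0.11), Pecam1 (-1.44 ± 0.17), the connexin gene Gja1 (1.05 ± 0.19) and the ligand gene Kitl (0.39).

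Families whose members were set by gene symbol alone were read in the same way. The families were picked with earlier results of these data known, and only some of those read are given here. Of 280 bright zinc finger genes with a Zfp, Zscan, Zkscan or Zbtb symbol 90 were below (32.1%) and 18 above (6.43%), against 22.4% and 13.6% of bright genes, while of the 127 dim ones 17 were above (13.4%) and 3 below. Of 44 bright DEAD and DEAH box helicase genes 14 were below (31.8%) and 5 above (11.4%). Of 10 bright cadherin and protocadherin genes 6 were below and 0 above. Of 19 bright receptor genes with a Gpr or Adgr symbol 7 were below (36.8%) and 1 above, and of 26 bright cytokine, chemokine and interleukin genes 8 were below (30.8%) and 3 above. Mitochondrial ribosomal protein genes had 13 of 73 bright ones above (17.8%) and 4 below (5.48%), but with centring 9 were above and 11 below, so no direction is given for them. Small GTPases with a Rab symbol had 2 of 49 bright ones above (4.08%) and 9 below (18.4%), and solute carriers 23 of 133 above (17.3%) and 30 below (22.6%). Over bright and dim members together solute carriers had 49 above and 35 below, and with centring 36 and 54. Olfactory and vomeronasal receptor genes, which are rarely used outside sensory neurons, had 1139 dim members, of which 26 were above (2.28%) and 12 below, against 8.96% and 2.36% of dim genes. Bright members included, 26 of them were above and 16 below, and with centring 16 and 73. Of 43 dim serpins 5 were above (11.6%), and of 82 dim cytokine, chemokine and interleukin genes 9 were above (11%) and 0 below. With their bright members cytokine, chemokine and interleukin genes had 12 above and 8 below, and with centring 8 and 14.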

How the data were processed

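RNA from 16 oocyte samples was measured on Affymetrix Mouse 1.1 ST arrays. The authors deposited 1 value per probe set and array, which were taken as log2 signal because they ran between 2.07 and 12.89, since no source states the base. The submitters' processing notes and the series' design text name MAS5. Values were used as deposited, with no renormalization. Of 35556 probe sets, 1881 carry several symbols and 12457 none, and these were not used. Chromosomes came from RefSeq genes of GRCm38.p6, matched for 21185 probe sets.

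One mean per genotype was fitted in limma 3.58.1 (R 4.3.3, 12 residual degrees of freedom) to all 16 arrays. All p-values are two-sided, from limma, with Benjamini-Hochberg adjustment over 21218 probe sets. SE values come from limma, and SD values from the 4 arrays of a genotype. The number of arrays limits the precision. The labels call the replicates biological. The fit was tested on simulated data. Tables and figures used Python 3.11.15, pandas 2.3.3 and matplotlib 3.10.9.

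The genes described, the lists, the families and the contrast were chosen with earlier results of these data known. Named genes are Hdac1, Hdac2, the 8 with the largest absolute interaction in each class (called, bright enough in some genotype, brightest probe set, no provisional symbol) and at most 2 called genes per list, by adjusted p. Others were chosen after their values were seen. Alternatives were other scalings, the linear scale, filters, a replicate block, 1 probe set per gene, a trended prior, a fold limit, another bright limit and leaving out each array.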

Additional observations from a re-analysis of the deposited data

Results flagged for a closer look

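In 42 of 428 groups of 4 arrays, over the 107 named genes, 1 array lay far from the other 3 of its genotype, with a gap to the nearest of them above Dixon's critical share of the whole range for 4 values. Chance flags about 1 in 20 groups. Values are log2 signal, each given with the range of the other 3 arrays, and no cause was tested.

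In the double knockout there were 11 such values. Crabp1 stood at 9.54 in replicate 3, against 10.01 to 10.02 in the others, and Zfp352 stood at 10.61 in replicate 1, against 11.14 to 11.16 in the others. Tdpoz3 stood at 9.0 in replicate 1, against 9.90 to 9.98 in the others, and Manba stood at 7.95 in replicate 1, against 4.11 to 4.25 in the others. Pramel17 stood at 7.85 in replicate 1, against 8.47 to 8.59 in the others, and Dnmt3l stood at 5.41 in replicate 3, against 6.29 to 6.37 in the others. Kdm6b stood at 8.31 in replicate 2, against 8.46 to 8.48 in the others, and Slc7a3 stood at 5.33 in replicate 4, against 4.36 to 4.52 in the others. Psma5 stood at 11.12 in replicate 4, against 11.05 to 11.05 in the others, and Gja1 stood at 6.83 in replicate 3, against 6.23 to 6.28 in the others. Bhlhe41 stood at 5.85 in replicate 3, against 6.56 to 6.62 in the others.

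In the Hdac1 knockout there were 11 such values. Hdac2 stood at 11.05 in replicate 2, against 11.14 to 11.16 in the others, and Tdpoz3 stood at 4.08 in replicate 2, against 3.64 to 3.70 in the others. Pramel27 stood at 5.84 in replicate 3, against 9.36 to 9.77 in the others, and Dhrs3 stood at 4.82 in replicate 3, against 7.41 to 7.62 in the others. Tarm1 stood at 6.49 in replicate 1, against 7.29 to 7.40 in the others, and Manba stood at 3.84 in replicate 3, against 7.49 to 7.79 in the others. Cacng7 stood at 4.62 in replicate 1, against 6.08 to 6.29 in the others, and Plk2 stood at 3.81 in replicate 2, against 3.69 to 3.69 in the others. Acacb stood at 8.50 in replicate 1, against 8.28 to 8.30 in the others, and Rpl10a stood at 10.83 in replicate 3, against 10.74 to 10.75 in the others. Zfp109 stood at 8.82 in replicate 3, against 8.54 to 8.58 in the others.

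In the Hdac2 knockout there were 15 such values. Usp17la stood at 6.51 in replicate 1, against 6.04 to 6.08 in the others, and Crabp1 stood at 7.25 in replicate 4, against 6.60 to 6.68 in the others. Tdpoz3 stood at 4.63 in replicate 2, against 3.41 to 3.43 in the others, and Cd24a stood at 4.93 in replicate 3, against 5.73 to 5.86 in the others. Pramel27 stood at 9.98 in replicate 4, against 9.46 to 9.55 in the others, and Stk36 stood at 6.66 in replicate 1, against 9.07 to 9.12 in the others. Tnfrsf1a stood at 4.17 in replicate 1, against 3.89 to 3.91 in the others, and Hdac8 stood at 7.56 in replicate 3, against 7.68 to 7.71 in the others. Kdm3a stood at 6.53 in replicate 3, against 6.64 to 6.66 in the others, and Klf4 stood at 6.72 in replicate 1, against 6.24 to 6.31 in the others. Ldha stood at 5.32 in replicate 1, against 5.65 to 5.68 in the others, and Pfkp stood at 7.13 in replicate 1, against 6.94 to 6.96 in the others. Atm stood at 7.38 in replicate 1, against 7.21 to 7.23 in the others, and Slc22a18 stood at 4.74 in replicate 3, against 4.95 to 4.99 in the others. Pecam1 stood at 8.55 in replicate 3, against 8.26 to 8.29 in the others.

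In wild type there were 5 such values. Steap4 stood at 8.21 in replicate 3, against 7.70 to 7.73 in the others, and Manba stood at 7.90 in replicate 2, against 3.83 to 3.88 in the others. Slc22a18 stood at 4.76 in replicate 4, against 4.55 to 4.57 in the others, and Nr5a2 stood at 9.73 in replicate 2, against 9.84 to 9.85 in the others. Htr5b stood at 6.53 in replicate 2, against 6.29 to 6.32 in the others.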

How the results depend on the processing

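Counts of called probe sets are given above and bright, above and dim, below and bright, below and dim (1545, 934, 2197 and 263 as reported). Asking also for a 1.4-fold interaction gave 761 above and bright, 1141 below and bright and 114 below and dim. Leaving out probe sets dim in every genotype gave 366 above and dim and 41 below and dim, fewer because fewer were tested. Calls below and dim numbered 726 with each array centred on its median, 470 with quantile normalization and 156 on the linear scale; the cause was not tested. Without any 1 array the counts were 1363 to 1538, 835 to 945, 1940 to 2181 and 208 to 250. Chosen after seeing the data, leaving out chromosomes 4 and 10 gave 1315, 825, 1913 and 210, and leaving out probe sets with a range over 2 gave 1547, 932, 2191 and 263.

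Same-numbered replicates did not deviate together: correlations of their deviations ran from -0.15 to 0.09 over 24 pairs, and 2 of 16 arrays were closest to their own number. The labels do not say whether such replicates shared a litter or day, and these correlations cannot decide that. The replicate block gave 1442, 922, 2049 and 254.

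Of 107 named genes, Hdac1 turned to -76.5 signal units on the linear scale (limma adjusted p = 0.121). Adjusted p passed 0.05 for Zfp109 and Zfp111 with the block (0.0523 and 0.0588), for Stk36, Dhrs3, Manba, Zfp109 and Zfp111 with a trended prior (0.0592 to 0.0883), for Zfp111 with quantile normalization and for Manba on the linear scale. These 5 genes account for all 52 calls lost among 1712 fits without 1 array. Hdac2 passed with centring, at -0.25 (limma adjusted p = 0.0319).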
